A study of Homo sapiens with 2 samples.

Results

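The genes of Polycomb repressive complex PRC2 were examined for open chromatin in G401 cells with and without the PRC2 inhibitor MAK683. The set holds 10 of the 20162 protein-coding genes of the annotation: EZH1, EZH2, EED, SUZ12, RBBP4, JARID2, AEBP2, MTF2, PHF19 and PHF1. They were chosen by name, as subunits of the complex, and not by any measured value, although earlier results of these data were known. A peak belonged to a member when it overlapped the gene body or lay within 3 kb of its transcription start site (TSS), which gave 95 of 114060 peaks with DMSO and 65 of 161184 with MAK683.

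PRC2 places methyl groups on lysine 27 of histone H3, a mark of repressed chromatin. EZH1 or EZH2 carries the catalytic site, and EED, SUZ12 and RBBP4 complete the core. EED reads the trimethyl mark and stimulates the enzyme. Accessory subunits define separate forms of the complex: JARID2 and AEBP2 belong to PRC2.2, and the Polycomb-like proteins MTF2, PHF19 and PHF1 belong to PRC2.1.

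ATAC-seq was used, in which the Tn5 transposase inserts adapters into open chromatin. G401 is an established line from a malignant rhabdoid tumour, a tumour type defined by loss of SMARCB1, a subunit of the SWI/SNF chromatin remodelling complex. One library came from cells given DMSO, the solvent, and the other from cells given 3 µM MAK683, which binds EED; cells were collected after 3 days, and paired reads of 150 bp were sequenced. With 1 library per group there was no replicate check, no test was made, and every interval below is a 95% interval of counting error only. Reads had no molecular identifiers and duplicates were removed by position alone, so the tags cannot be taken as independent molecules.

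The libraries held 16598348 (DMSO) and 18265284 (MAK683) tags after duplicate filtering. Peak height is the pileup of tags at the summit per 1000000 of these tags (RPM), so 1 tag was worth 0.0602 RPM with DMSO and 0.0547 RPM with MAK683. As a check of the line, neither library held a peak across SMARCB1 and its neighbours: the stretch without peaks on chromosome 22 was 668.7 kb long with DMSO and 698.5 kb long with MAK683. Promoter heights were lower in the MAK683 library across the genome. Promoter peaks in both libraries were found for 14288 protein-coding genes, and their log2 ratios (MAK683 over DMSO, used throughout) had a median of -0.46, which is 72.7% of the DMSO height. Each member was therefore read against this shift. Treatment and library cannot be told apart in this design.

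The letters at the members are shown before their heights. Each stretch was read from GRCh37 (hg19) on the strand of the gene, 5′ to 3′, and touches no exon of any annotated transcript. Capitals mark exact matches, on either strand, to the motifs searched: GGGCGG (SP/KLF), CCAAT (NFY), CCGGAAG (ETS), TTTGGCG or TTTCGCG (E2F), GCATGCG (NRF1), AAGATGG (YY1), TGACTCA or TGAGTCA (AP-1), CACGTG (E-box) and AGGGGGC (part of the CTCF motif). The last of these can overlap GGGCGG by some letters.

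The catalytic subunit promoters are shown because they differed in height in both libraries. The EZH2 stretch lies at chr7:148581414-148581593 on the minus strand, 31 to 210 bp upstream of the TSS, and spans the summits of both libraries. The EZH1 stretch lies at chr17:40897068-40897247 on the minus strand, 10 to 189 bp upstream.
EZH2 promoter: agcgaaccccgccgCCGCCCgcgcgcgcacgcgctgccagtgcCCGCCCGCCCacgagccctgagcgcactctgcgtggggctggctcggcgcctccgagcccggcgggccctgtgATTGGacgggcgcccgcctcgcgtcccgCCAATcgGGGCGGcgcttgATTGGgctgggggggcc
EZH1 promoter: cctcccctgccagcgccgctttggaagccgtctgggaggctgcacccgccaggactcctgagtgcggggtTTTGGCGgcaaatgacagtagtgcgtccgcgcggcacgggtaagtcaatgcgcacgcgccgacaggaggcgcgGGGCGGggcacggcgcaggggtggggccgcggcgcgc

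The core subunit promoters are shown because EED is the protein that MAK683 binds, SUZ12 had the smallest difference in height, and RBBP4 had one of the larger ones. EED lies at chr11:85955215-85955394 on the plus strand, up to 580 bp upstream of the TSS, the nearest stretch of this length without an exon. SUZ12 lies at chr17:30263846-30264025 on the plus strand, 1 to 180 bp upstream. RBBP4 lies at chr1:33116563-33116742 on the plus strand, 67 to 246 bp upstream.
EED promoter: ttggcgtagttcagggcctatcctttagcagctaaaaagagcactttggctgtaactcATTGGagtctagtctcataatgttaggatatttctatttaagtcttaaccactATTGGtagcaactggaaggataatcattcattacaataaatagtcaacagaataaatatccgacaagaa
SUZ12 promoter: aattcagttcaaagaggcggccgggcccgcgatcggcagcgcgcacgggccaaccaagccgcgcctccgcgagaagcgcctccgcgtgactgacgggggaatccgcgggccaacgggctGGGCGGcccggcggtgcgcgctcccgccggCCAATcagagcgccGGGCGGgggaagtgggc
RBBP4 promoter: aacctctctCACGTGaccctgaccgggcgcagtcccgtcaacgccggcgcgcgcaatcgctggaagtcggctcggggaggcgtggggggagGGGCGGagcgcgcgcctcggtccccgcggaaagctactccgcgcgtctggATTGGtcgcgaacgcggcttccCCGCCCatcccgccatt

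Among accessory subunits, JARID2 had the tallest promoter peak and PHF1 the largest difference between libraries. JARID2 lies at chr6:15246120-15246299 on the plus strand, 1 to 180 bp upstream of the TSS. PHF1 lies at chr6:33378287-33378466 on the plus strand, 325 to 504 bp upstream.
JARID2 promoter: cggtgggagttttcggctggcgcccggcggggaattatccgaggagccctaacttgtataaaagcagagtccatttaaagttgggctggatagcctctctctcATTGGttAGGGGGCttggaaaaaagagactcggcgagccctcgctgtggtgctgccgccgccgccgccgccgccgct
PHF1 promoter: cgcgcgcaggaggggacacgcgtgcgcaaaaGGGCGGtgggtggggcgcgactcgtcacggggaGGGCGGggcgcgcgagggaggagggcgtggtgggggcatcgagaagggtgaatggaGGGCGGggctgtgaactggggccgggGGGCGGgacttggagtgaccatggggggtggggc

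The last pair are sites inside genes: the tallest site of JARID2 over 3 kb from any TSS, in intron 2 at chr6:15390610-15390809 on the plus strand, and the tallest site of AEBP2 with a peak in the DMSO library alone, at chr12:19796669-19796868 on the plus strand. Neither stretch held any of the motifs searched.
JARID2 intronic site: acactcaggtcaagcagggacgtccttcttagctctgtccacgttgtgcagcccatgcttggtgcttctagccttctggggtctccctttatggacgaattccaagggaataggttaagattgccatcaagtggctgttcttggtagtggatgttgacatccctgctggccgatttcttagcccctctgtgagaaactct
AEBP2 DMSO-only site: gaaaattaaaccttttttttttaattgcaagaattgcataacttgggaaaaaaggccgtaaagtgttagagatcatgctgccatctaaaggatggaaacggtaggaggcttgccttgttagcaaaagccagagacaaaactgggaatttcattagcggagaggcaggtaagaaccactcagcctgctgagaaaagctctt

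Around the tallest summit, the member promoters were rich in G and C. In windows of 300 bases, their median GC content was 71.2%, from 53.7% at EED to 75.3% at PHF19, beside a median of 64.7% over the 16247 protein-coding promoters with a peak. The median number of CpG dinucleotides was 33.5, against 24 over all promoters. The SP/KLF box was found in 7 of 10 member windows (EZH1, EZH2, SUZ12, RBBP4, JARID2, PHF19 and PHF1), beside 60.8% of all windows. CCAAT was found in 6 of 10 (EZH1, EZH2, EED, SUZ12, RBBP4 and PHF1), beside 32% of all windows. An E2F match, of the type bound by cell cycle regulators, was in the windows of EZH1 and EZH2 and no other member, beside 4.26% of all windows. NRF1 matched at EZH1 alone (4.78% of all). The ETS, YY1, AP-1, E-box and CTCF letters were in 0 of 10 member windows, against 14.8%, 6.43%, 2.69%, 8.34% and 18.6% of all windows. These windows are not the stretches printed above. The printed stretches of EED and PHF1 lie outside their windows, and those of EZH1, RBBP4 and JARID2 lie only partly inside. The E-box printed at RBBP4 and the CCAAT and CTCF letters printed at JARID2 fall outside and were not counted. The windows of AEBP2 and MTF2 held none of the motifs. A match is a description of letters and not a bound site.

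All 10 members had a promoter peak in both libraries, where 72.7% of protein-coding genes had one with DMSO and 78.7% with MAK683. The promoter peak was lower in the MAK683 library for 10 of 10 members, beside 86.5% of all genes. The median log2 ratio of the members was -0.57, from -0.94 at PHF1 to -0.14 at SUZ12, next to the -0.46 of all promoters. The fold of at least 1.5 lower was reached by 4 of 10 members (EZH1, RBBP4, AEBP2 and PHF1), beside 36.0% of all genes, and 0 of 10 were higher by that fold, beside 3.65%. The counting interval of the ratio lay below 0 for 3 of 10 members (RBBP4, AEBP2 and PHF1), beside 20.6%. EED and JARID2, at 0.671 and 0.672 of the DMSO height, were just short of the fold. With 10 genes, these counts lie near the shares of all genes. The promoter peak was also narrower in the MAK683 library for 10 of 10 members, beside 73.0% of all genes, with a median width of 2015 bp with DMSO and 1659.5 bp with MAK683. Width is that of the tallest called peak alone. Promoter peaks numbered 4 with DMSO and 6 with MAK683 at PHF1, 2 and 4 at AEBP2, and 1 and 2 at EED. JARID2 (4 and 2) and MTF2 (2 and 1) went the other way, and the rest were equal. The part of peak splitting in the widths was not tested.

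**Figure D1:**
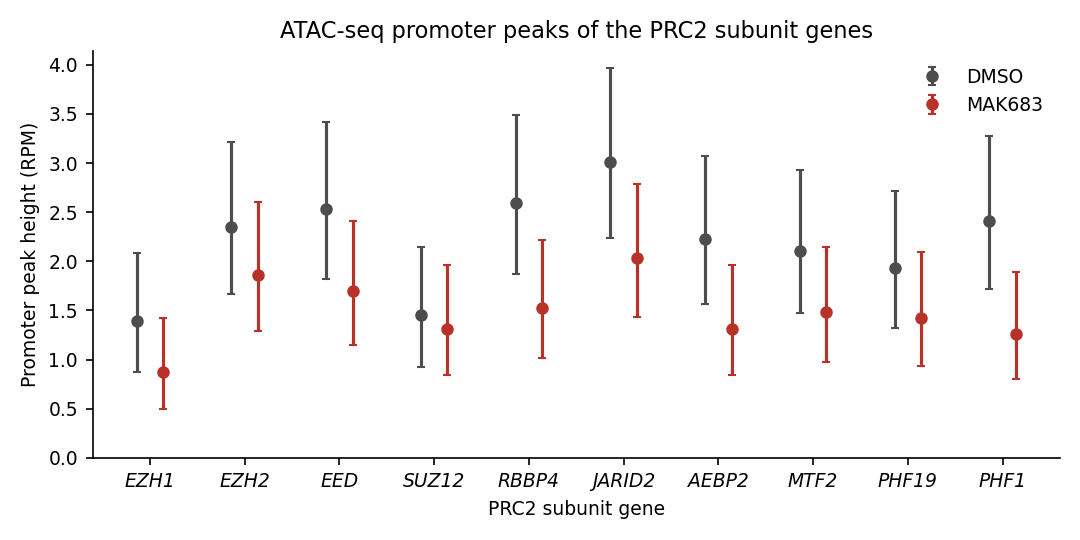
Height of the tallest promoter peak of each PRC2 subunit gene (vertical axis, RPM) in the DMSO library (grey) and the MAK683 library (red), 1 library each; bars are 95% exact Clopper-Pearson counting intervals. Every MAK683 point sits below its DMSO point, from 2.41 to 1.26 RPM at PHF1 and from 1.45 to 1.31 RPM at SUZ12.

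The promoter peak of EZH2 was taller than that of EZH1 in both libraries. EZH2, the catalytic subunit most used by dividing cells, had a promoter height of 2.35 RPM (39 tags) with DMSO and 1.86 RPM (34 tags) with MAK683. EZH1, the paralogue more common in resting cells, had 1.39 RPM (23 tags) with DMSO and 0.876 RPM (16 tags) with MAK683. The log2 difference, EZH2 over EZH1, was 0.76 (0.02 to 1.51) in DMSO and 1.09 (0.23 to 1.94) in MAK683. The log2 ratio of MAK683 to DMSO was -0.34 (-1.0 to 0.33) at EZH2 and -0.66 (-1.58 to 0.26) at EZH1, and both intervals held the median of all promoters. Height is read at the summit and needs no scaling by gene length. Among the promoters with a peak in both libraries, EZH2 stood at or above 69.8% in DMSO height and 80.1% in MAK683 height. EZH1 stood at or above 28.8% and 19.5%. The EZH2 summit lay 140 bp upstream of the TSS in DMSO and 128 bp upstream in MAK683, inside the printed stretch with its CCAAT and SP/KLF letters. The EZH1 summit lay 2 bp upstream in DMSO but 339 bp inside the gene in MAK683, in intron 1.

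The core subunits covered much of the range. EED, the subunit that MAK683 binds, had 2.53 RPM (42 tags) with DMSO and 1.70 RPM (31 tags) with MAK683, a log2 ratio of -0.58 (-1.25 to 0.09). SUZ12, which holds the complex together, had 1.45 RPM and 1.31 RPM, 24 tags in each library, and a log2 ratio of -0.14 (-0.95 to 0.68). It was the member with the smallest difference, and 79.5% of all promoters had a ratio at or below it. RBBP4, a histone-binding protein that other chromatin complexes also contain, had 2.59 RPM (43 tags) and 1.53 RPM (28 tags), a log2 ratio of -0.76 (-1.44 to -0.07).

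At all 3 core genes the summits were at other bases in the 2 libraries, so their heights compare the tallest base of each peak and not a fixed base. At RBBP4 the DMSO summit lay 33 bp upstream of the TSS and the MAK683 summit 622 bp upstream, close to the start of ZBTB8OS, which is read in the opposite direction from 658 bp upstream. At EED the summit lay 38 bp inside the gene in DMSO and 392 bp inside in MAK683, and the long noncoding RNA gene ENSG00000288809 starts 220 bp downstream of the EED TSS on the other strand. At SUZ12 the summit lay 54 bp upstream in DMSO and 148 bp upstream in MAK683, and 1 peak was called in the whole gene in each library. The SUZ12 promoter has a near-identical copy: 1774 bp of its peak aligned at 95.5% identity to chr17:29057935-29059670, the start of the pseudogene SUZ12P1. A peak of 25 tags in DMSO and 17 in MAK683 was called there, and reads of the copies may be exchanged, so the SUZ12 height is uncertain. In all, 1596 matches of at least 100 bp at 90% identity covered 96.4% of the SUZ12 promoter peak. Of the other members, EZH2 (46 matches) and RBBP4 (2 matches) had such matches over 11.8% and 12.2% of their promoter peaks. The remaining 7 had none.

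The PRC2.2 subunits followed. JARID2, a DNA-binding relative of the Jumonji demethylases that lacks their activity, had the tallest promoter of the set, 3.01 RPM (50 tags) with DMSO and 2.03 RPM (37 tags) with MAK683, a log2 ratio of -0.57 (-1.19 to 0.04). AEBP2, a zinc finger subunit, had 2.23 RPM (37 tags) and 1.31 RPM (24 tags), a log2 ratio of -0.76 (-1.5 to -0.02). JARID2 was taller than EZH1 in both libraries, by a log2 difference of 1.12 (0.41 to 1.83) in DMSO and 1.21 (0.36 to 2.06) in MAK683. The noncoding RNA genes JARID2-DT and JARID2-AS1 start on the other strand, 1069 bp upstream and 2565 bp downstream of the JARID2 TSS. A separate peak near the start of JARID2-AS1, at chr6:15247998-15250455 with its summit 3309 bp into JARID2 in intron 1, held 40 tags (2.41 RPM) with DMSO and 31 tags (1.70 RPM) with MAK683, a log2 ratio of -0.51 (-1.18 to 0.17). Against AEBP2 the difference of the JARID2 promoter was 0.43 (-0.18 to 1.05) and 0.62 (-0.12 to 1.37), which counting error covered.

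Of the Polycomb-like subunits, which bind CpG-rich DNA and methylated histone H3 lysine 36, MTF2 had 2.11 RPM (35 tags) with DMSO and 1.48 RPM (27 tags) with MAK683, a log2 ratio of -0.51 (-1.24 to 0.21). PHF19 had 1.93 RPM (32 tags) and 1.42 RPM (26 tags), a log2 ratio of -0.44 (-1.18 to 0.31). Its summits lay 858 bp (DMSO) and 1198 bp (MAK683) inside the gene, in intron 1. PHF1 had 2.41 RPM (40 tags) and 1.26 RPM (23 tags), a log2 ratio of -0.94 (-1.68 to -0.20). That was the largest difference of the set, yet 8.2% of all promoters had a ratio at or below it, and its interval held the median of all promoters. The PHF1 peak was 2449 bp wide in DMSO and 777 bp in MAK683, with summits 699 bp and 671 bp upstream of the TSS.

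In both libraries the order of heights began with JARID2 and ended with EZH1. In the DMSO library JARID2 was followed by RBBP4, EED, PHF1, EZH2, AEBP2, MTF2, PHF19, SUZ12 and EZH1. In the MAK683 library JARID2 was followed by EZH2, EED, RBBP4, MTF2, PHF19, AEBP2, SUZ12, PHF1 and EZH1. No neighbouring pair in either order differed beyond its counting interval. Centred on the median of all promoters, the members ran from -0.48 at PHF1 to 0.32 at SUZ12. Of the 10, 0 were then lower by at least 1.5 times, beside 4.36% of all genes.

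**Figure D2:**
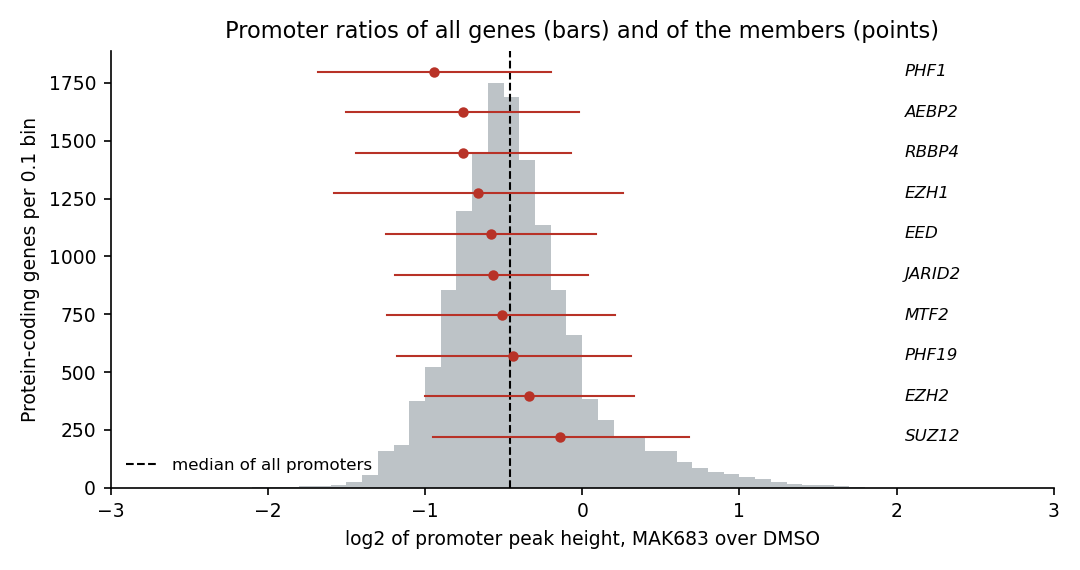
Log2 ratio of promoter peak height, MAK683 over DMSO (horizontal axis), for 14288 protein-coding genes whose promoter was called in both libraries (grey bars, genes per 0.1 bin; values past 3 on either side are in the end bins) and for the 10 members (red points with 95% counting intervals, at arbitrary heights). The dashed line is the median of all genes, -0.46; every member's interval crosses it.

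Inside the gene bodies fewer peaks were called in the MAK683 library. The members held 95 peaks with DMSO and 65 with MAK683, a ratio of 0.684, while peaks in all protein-coding genes numbered 79967 and 95161, a ratio of 1.19. Fewer peaks in the MAK683 library were found at 6 of 10 members (EZH2, RBBP4, JARID2, AEBP2, MTF2 and PHF19), beside 42.7% of genes with a peak. Among genes with at least 20 peaks in both libraries together it was 4 of 4 members (EZH2, JARID2, AEBP2 and PHF19), beside 50%. At stricter q-values both sets had fewer peaks in MAK683. At a −log10 q of 5 or more the members held 54 and 28 peaks, a ratio of 0.519, beside a ratio of 0.866 for all genes, and with at least 10 they held 21 and 15, a ratio of 0.714 beside 0.827.

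EZH2 carried much of this difference. It held 21 peaks with DMSO and 9 with MAK683, which covered 11.8 kb and 5.99 kb of the gene. Its ratio of 0.429 was at or above that of 8.24% of the genes with at least 20 peaks. Without a peak in MAK683 were 11 of its 21 DMSO peaks, and each of its 9 MAK683 peaks overlapped a DMSO peak. JARID2 held 26 and 19 peaks, AEBP2 17 and 12, PHF19 12 and 8, RBBP4 4 and 2, and MTF2 3 and 1. EED held 4 and SUZ12 1 in each library. EZH1, with 2 and 3, and PHF1, with 5 and 6, held more in MAK683. At PHF1, however, all 6 MAK683 peaks overlapped a DMSO peak, and peaks covered 6.67 kb with DMSO and 3.31 kb with MAK683.

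The surroundings of the genes were not alike. Within 500 kb on either side, JARID2 had 7 peaks with DMSO and 42 with MAK683, and AEBP2 had 8 and 22, the opposite direction to the peaks inside these genes. EZH2 had 112 and 106 flanking peaks. All flanks together held 943 peaks in DMSO and 777 in MAK683, a ratio of 0.824. Peaks on the main chromosomes went the other way, with 114060 in DMSO and 161184 in MAK683. Flanks of other genes were not counted. RBBP4 (180 and 134), EZH1 (130 and 94), PHF1 (206 and 150), PHF19 (107 and 79), SUZ12 (89 and 63) and MTF2 (58 and 32) had fewer flanking peaks in MAK683, and EED (46 and 55) had more.

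**Figure D3:**
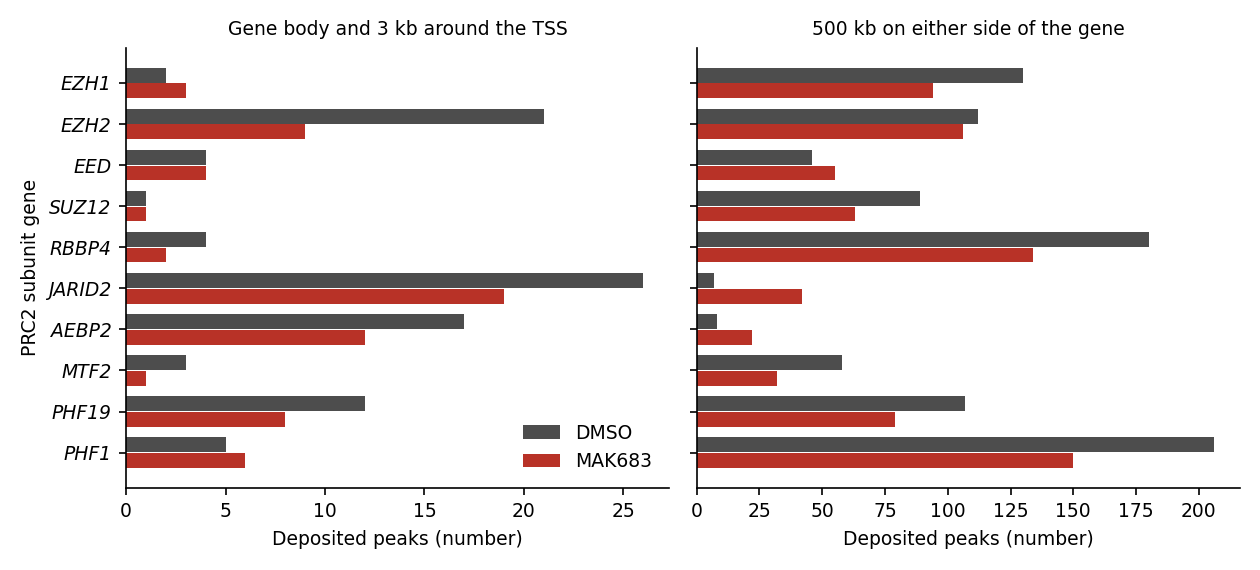
Number of deposited peaks (horizontal axes) at each PRC2 subunit gene in the DMSO library (grey) and the MAK683 library (red). The left panel counts the gene body and 3 kb around the TSS, and the right panel the 500 kb on either side of the gene; the panels have different scales. EZH2 has 21 and 9 peaks inside the gene and 112 and 106 outside, while JARID2 has 26 and 19 inside and 7 and 42 outside.

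Of the member peaks in the DMSO library, 45.3% (Wilson interval 35.6 to 55.3%) overlapped a MAK683 peak by at least 1 bp, beside 55% of DMSO peaks in all protein-coding genes. Of the member peaks in the MAK683 library, 75.4% (63.7 to 84.2%) overlapped a DMSO peak, beside 50.4%. Peaks without a partner were low: 6 to 17 tags with DMSO and 7 to 11 with MAK683, against a lowest deposited height of 6 tags in either. A missing peak therefore means a height that did not pass the peak caller, not closed chromatin.

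Merging the peaks of both libraries gave 81 member regions over 3 kb from the TSS of any gene. A peak in the DMSO library alone was found at 42 of 81, beside 31.8% of such regions in all protein-coding genes. A peak in the MAK683 library alone was found at 15 of 81, beside 44.6%. The 42 were at JARID2 (12), EZH2 (10), AEBP2 (9), PHF19 (6), RBBP4 (3), EED (1) and MTF2 (1). The 15 were at JARID2 (7), AEBP2 (5), PHF19 (2) and EED (1), with 0 at EZH2. At the 24 regions called in both, log2 ratios had a median of -0.33, beside -0.31 for all genes. At least 1.5 times lower in MAK683 were 5 of 24, beside 27.6%, and 0 of 24 were higher by that fold, beside 3.27%. Beside all genes, the members thus had a larger share of regions called with DMSO alone (51.9%) and a smaller share called with MAK683 alone (18.5%). The median ratio of regions called in both was near that of all genes. Those regions had to pass the caller in each library, so their ratio cannot show where the difference lies. Regions of 1 gene share their locus and are not replicates, and the part of depth and of the caller's threshold in these counts was not tested.

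**Figure D4:**
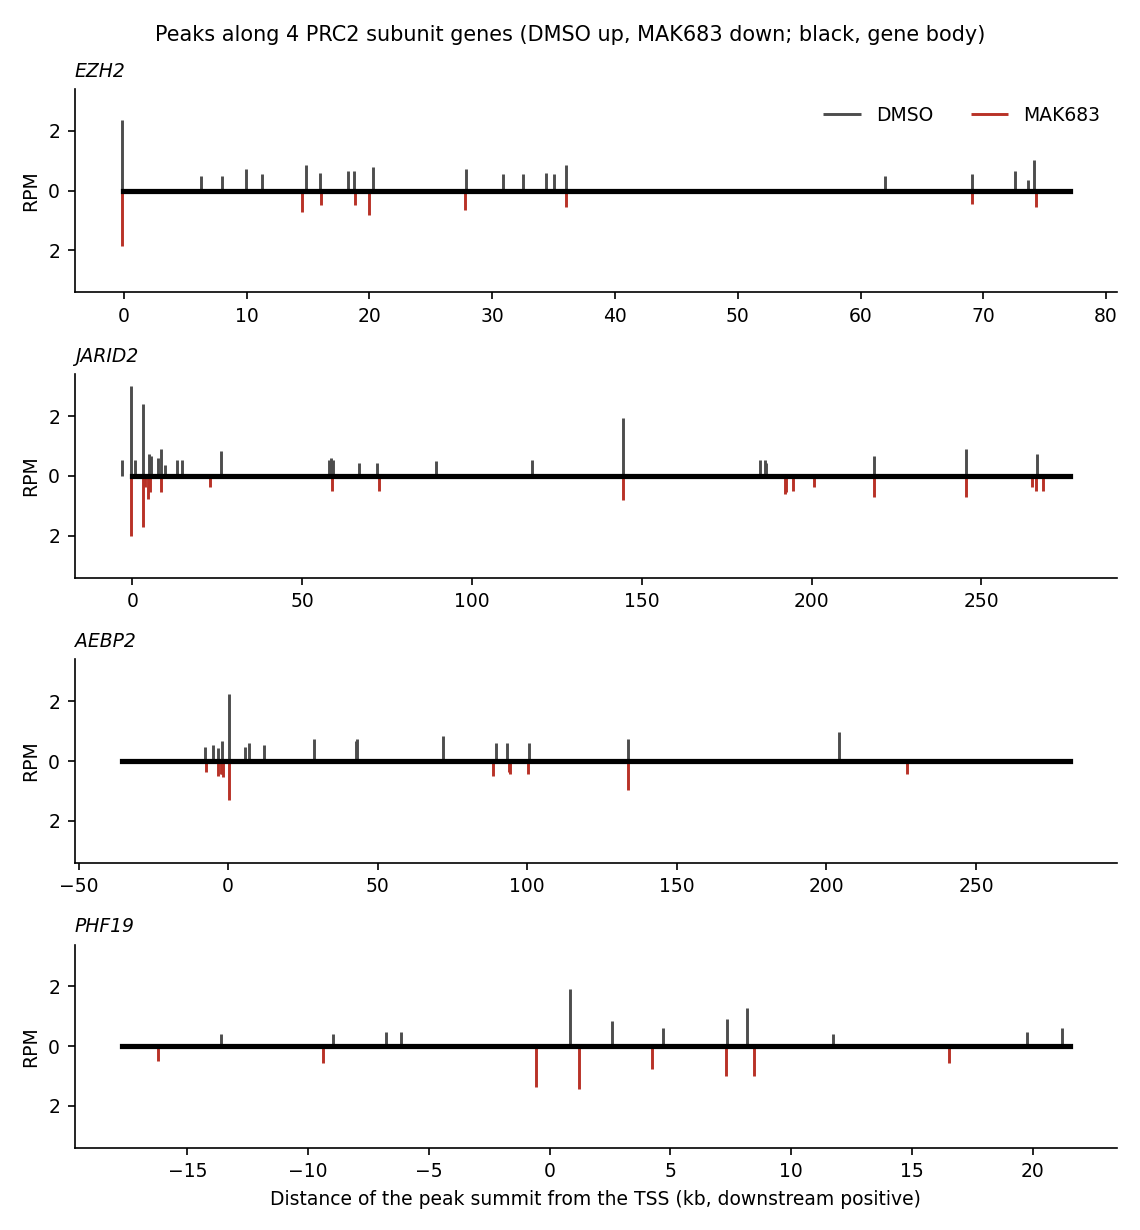
Peaks along EZH2, JARID2, AEBP2 and PHF19: distance of each summit from the TSS (horizontal axis, kb, downstream positive) and height (vertical axis, RPM), with DMSO drawn up and MAK683 down from the gene body (black line). EZH2 shows 21 lines up and 9 down, and the JARID2 site 144.4 kb into the gene stands at 1.93 RPM up and 0.821 RPM down.

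The tallest region of the set outside the promoters, that is with no base within 3 kb of a member TSS, was in JARID2, at chr6:15390223-15391110, 144.4 kb downstream of the TSS in intron 2. It held 32 tags (1.93 RPM) with DMSO and 15 tags (0.821 RPM) with MAK683, a log2 ratio of -1.23 (-2.12 to -0.35). No other non-promoter region of a member reached 1.5 RPM in either library, and the sequence at its summit is the JARID2 intronic site printed above. The tallest in PHF19, in intron 6 at chr9:123630583-123631820, held 21 and 18 tags, a log2 ratio of -0.36 (-1.27 to 0.55). The tallest in EZH2, in intron 17 at chr7:148506937-148507481, held 17 and 10 tags, a log2 ratio of -0.90 (-2.03 to 0.22).

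In AEBP2 the tallest by RPM, at chr12:19725633-19726726 beyond the canonical transcript but in an intron of a longer one, was the higher in MAK683, with 12 tags in DMSO and 18 in MAK683 and a log2 ratio of 0.45 (-0.61 to 1.5). The next, chr12:19796618-19796933, held 16 tags in DMSO and no peak in MAK683. It is the AEBP2 DMSO-only site printed above. RBBP4 had a region of 17 tags in the DMSO library alone, at chr1:33150885-33151730 in exon 12 and its untranslated part. The tallest in EED, chr11:85929189-85930031, held 14 and 12 tags in an intron of a longer transcript. The single such region of MTF2 held 11 tags in DMSO alone, in intron 1. SUZ12 had no peak away from its promoter, and those of EZH1 and PHF1, of at most 12 tags, lay within 3 kb of the TSS of some gene.

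Other genes of the pathway were read in the same way: the RBBP4 paralogue RBBP7, the PRC2.1 subunits EPOP, LCOR and LCORL, the EZH2 inhibitor EZHIP, and the H3K27 demethylases KDM6A and KDM6B. A promoter peak was found at 6 of 7 with DMSO and 7 of 7 with MAK683. EZHIP, a gene normally active in germ cells, had none in DMSO and 6 tags in MAK683, the lowest height of a deposited peak. The summit of that EZHIP peak lay 1620 bp downstream of the TSS. Of the 6 with a peak in both, 6 were lower in MAK683, with a median log2 ratio of -0.51, and 2 were lower by at least 1.5 times, EPOP (-0.95) and LCOR (-0.74). The EPOP summits lay far from its TSS, 2271 bp (DMSO) and 2290 bp (MAK683) upstream. KDM6A had -0.07 and KDM6B -0.51. The KDM6B summits lay 1346 bp (DMSO) and 2792 bp (MAK683) downstream of the TSS. The 6 ratios ran from -0.95 to -0.07, beside -0.94 to -0.14 for the members.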

How the data were processed

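ATAC-seq peaks of 2 G401 libraries (DMSO and MAK683, 1 each, grouped by the treatment label) were analysed. Per the study's methods and labels, Trim-galore removed adapters and low-quality bases, and Bowtie2 placed the reads on hg19. How reads with several alignments were treated is not given in the sources used here. Per the file headers, the authors ran MACS 2.1.1.20160309 separately for each library, while the processing notes name MACS2 2.1.0 and 2.2.7.1. Each tag was moved by -100 bp and lengthened to 200 bp, duplicates at a position were reduced to 1, peaks passed at a q-value of 0.05, and no local background was used.

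The deposited pileup is a signal in whole tags, without scaling for depth. The fold enrichment, also deposited, is a ratio of pileup to a genome-wide background. The deposited −log10 p-value was not used, and the deposited −log10 q-value of each peak served as a filter in alternatives only.

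Heights were divided by the tags after filtering and multiplied by 1000000. The promoter height was the tallest peak within 3 kb of the TSS of the canonical transcript, in GENCODE 44 lifted to GRCh37. Height intervals are exact Clopper-Pearson, intervals of shares are Wilson, and ratio intervals use the Poisson error of both tag numbers on a log scale. Flanks were 500 kb. Copies were sought with blastn 2.17.0 at 90% identity over 100 bp. The overlap, merging and interval code was tested on simulated data. Python 3.11.15, numpy 2.4.6, pandas 2.3.3, scipy 1.17.1 and matplotlib 3.10.9 were used. Alternatives were other height scales, stricter q-values, a 1 kb window, all basic TSSs, gene bodies alone and a 50% overlap. The members and lists were chosen with earlier results of these data known. Every member, the other pathway genes and neighbours within 3 kb of a member TSS were named, with the tallest non-promoter region of each member and those of at least 1.5 RPM.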

Additional observations from a re-analysis of the deposited data

How the results depend on the processing

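Each of 10 members kept its promoter peak in both libraries, and each promoter ratio stayed within its counting interval, under all alternatives run. Unscaled tags and centring move every ratio by a shared amount that is smaller than the reach of these intervals. The q limits removed no member promoter peak, as the lowest −log10 q was 10.3 (EZH1, MAK683). Staying within the intervals could thus hardly fail under these settings and is no measure of stability. The member median stayed negative, between -0.57 and -0.44, except that centring on all promoters left -0.11. Centring also left 0 of 10 members lower by at least 1.5 times, beside 4.36% of all genes. With unscaled tags or the fold enrichment, 3 of 10 were lower by that fold. The share of all genes was 22.8% with unscaled tags and 27.4% with the fold enrichment. At a −log10 q of at least 5, member peaks numbered 54 in DMSO and 28 in MAK683, and at least 10 left 21 and 15. The share of DMSO peaks with a partner was 61.9% at 10 or more, and that of MAK683 peaks 92.9% at 5 and 93.3% at 10. An overlap of 50% of each peak left 24.2% of DMSO and 35.4% of MAK683 peaks shared. These shares over all genes were not computed at the alternative settings, so the contrast with all genes is known for the main setting only. Fewer peaks pass the stricter settings by construction. The median ratio of the regions called in both libraries was between -0.33 and -0.12. It rested on 24 regions in the main setting, on 11 at a −log10 q of at least 5 (-0.14), and on 2 at 10 (-0.12). No paired analysis was possible because there was 1 library per group, and no library could be left out. Promoter peaks of the members held 16 to 50 tags, which sets the width of the intervals.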
